A study of Ogataea parapolymorpha DL-1 with 4 samples.

Results

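The histone genes of the methylotrophic yeast Ogataea parapolymorpha DL-1 were followed by RNA sequencing in 4 libraries, and 11 of the 5448 rows of the deposited expression table were histone rows. The rule takes the rows whose product begins with "Histone H" and a digit and is no enzyme, and uses no expression value, although histone genes were picked as a subject with earlier results of these data known. Of these, 8 were canonical core histones, with 2 rows each for H2A, H2B, H3 and H4. The remaining 3 were the H2A variant H2A.Z (HTZ1), the centromeric H3 variant (CSE4) and the linker histone H1 (HHO1), which is not a core histone although the rule takes it in.

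The wild type had the genotype leu2 [LEU2] and the mutant leu2 met4::LEU2, both in the DL-1 background, so that the gene for leucine synthesis was present in both strains. Cultures were inoculated at an OD600 of 0.1 in YPD, a rich medium, taken at an OD600 of 0.3 in early exponential phase and then moved to B medium, which the labels call sulfur-limited, or to B medium with 0.5 mM cysteine. The libraries are called the limited and the cysteine library of a strain below. RNA was taken after 2 h, with 1 library for each of the 4 combinations of strain and medium. Since no group has a replicate, differences are given without a test or an error.

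Nucleosomes wrap DNA around an octamer of H2A, H2B, H3 and H4, and the linker histone binds the DNA where it enters and leaves. In budding yeast the canonical genes lie in divergent pairs, H2A beside H2B and H3 beside H4, that share a promoter, and they are transcribed mainly in S phase, when new DNA has to be packaged. H2A.Z replaces H2A at many promoters, and the centromeric H3 variant marks the nucleosome on which the kinetochore is built. In that yeast Met4 switches on the genes that take up sulfate and turn it into methionine and cysteine.

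The table gives FPKM, fragments corrected for the length of the transcript and the size of the library, so levels are given per length. Rows of different length are comparable only so far as that correction held in each library, which was not tested. Sequencing depth is unknown, since FPKM does not carry it. Median FPKM over the 5342 rows with a mean of at least 1 FPKM lay between 64.0 and 78.0 in the 4 libraries, whereas the sum over all rows ranged from 1329360 in the mutant with cysteine to 3217250 in the wild type in B medium. Rows of under 600 bases held 71.4% and 62.4% of that sum in the wild type without and with cysteine, and 44.2% and 36.8% in the mutant. Most histone rows are this short, and the values below that bear on length are given beside the comparison they touch. As a check of the labels, the row zip1 (HPODL_03459), read here as the counterpart of MET4 because no row has that name, and its neighbour HPODL_05198 were both listed at 0 in the mutant libraries, against 485 and 2343 FPKM in the limited wild type. No strain difference can therefore be assigned to zip1 alone.

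All 8 canonical rows lay in 4 divergent pairs, with the partners transcribed away from each other. On chromosome VI, H3 (HHT2, HPODL_01324, 395984 to 396394, minus strand) faced away from H4 (HHF3, HPODL_01325, 396712 to 397023, plus strand) across 317 bases. A second H3 (HHT2, HPODL_01891, 1343031 to 1343441) and H4 (HHF3, HPODL_01892, 1343849 to 1344160) pair lay on the same chromosome with 407 bases between the rows. On chromosome III, H2B (HTB2, HPODL_00353, 337826 to 338221) and H2A (hta1, HPODL_00354, 338492 to 338887) were separated by 270 bases. The other H2A (HTA2, HPODL_00514, 620509 to 621417) and H2B (HTB2, HPODL_00515, 621809 to 622204) were separated by 391 bases. Over the whole table, 27.8% of the 5441 pairs of neighbouring rows were divergent. Positions are those of the deposited table and are the same in the RefSeq assembly Hansenula_2 for all 11 rows.

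Row lengths were 411 bases for both H3 rows, 312 for both H4 rows and 396 for both H2B rows and for hta1, but 909 for HTA2. Whether the longer HTA2 row reflects its transcript was not tested. Its FPKM depends on the transcript length used for it, which is not known here. HTZ1 (HPODL_03574, chromosome IV, 981897 to 982301), CSE4 (HPODL_01931, chromosome VI, 1407595 to 1408098) and HHO1 (HPODL_03112, chromosome VII, 1280035 to 1280843) each had a single row. Rows of the same histone can share reads, so the split between them is uncertain and their summed levels are given as well. In what follows the pairs HPODL_01324/HPODL_01325 and HPODL_00353/HPODL_00354 are called the lower-coordinate pairs and the other two the higher-coordinate pairs, from their place on the chromosome.

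The lower-coordinate H3 row, HPODL_01324, had 22049 FPKM in the limited and 259.8 in the cysteine library of the wild type, and 2634 and 244 in those of the mutant. Its divergent partner, the H4 row HPODL_01325, had 45754, 1109.7, 4214 and 774 FPKM in the same order, and was the row at rank 7 of the whole table in the limited wild type. Both were highest in the wild type in B medium, intermediate in the mutant in B medium and low in the libraries with cysteine, where the strains lay close together. The H2A row hta1 had 30051, 1089, 3779 and 865 FPKM, and its partner, the H2B row HPODL_00353, had 20460.2, 697, 3448 and 791. These 4 rows thus had the same top library, the same next library, and low levels in the remaining 2.

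In the higher-coordinate pairs the libraries lay much closer together. The H3 row HPODL_01891 had 10073 and 4242 FPKM in the limited and the cysteine library of the wild type and 5832 and 4268 in those of the mutant, and its partner, the H4 row HPODL_01892, had 25177, 7563, 9605 and 6904. The H2A row HTA2 had 5009, 1790.15, 1478 and 848 FPKM, and its H2B partner HPODL_00515 had 6176, 1813, 2264 and 2019. The wild type in B medium was again the top library for each of them. HTA2 stood apart from the other three in that the mutant in B medium lay below the wild type with cysteine.

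Among the single rows, HTZ1 had 1415, 128, 435 and 245 FPKM and the linker histone gene HHO1 689.6, 46.1, 174 and 55.1, the same order of B medium libraries over cysteine libraries as in the lower-coordinate pairs. CSE4 had 256, 186, 177 and 253 FPKM. It was the histone row whose 4 values lay closest together, and neither medium nor strain had both of its libraries above the others. Per length, H4 was the most abundant histone in every library, and HHO1 or CSE4 the least. The H4 rows are also the shortest of the histone rows (312 bases), and the part of length in this order was not tested.

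**Figure D1:**
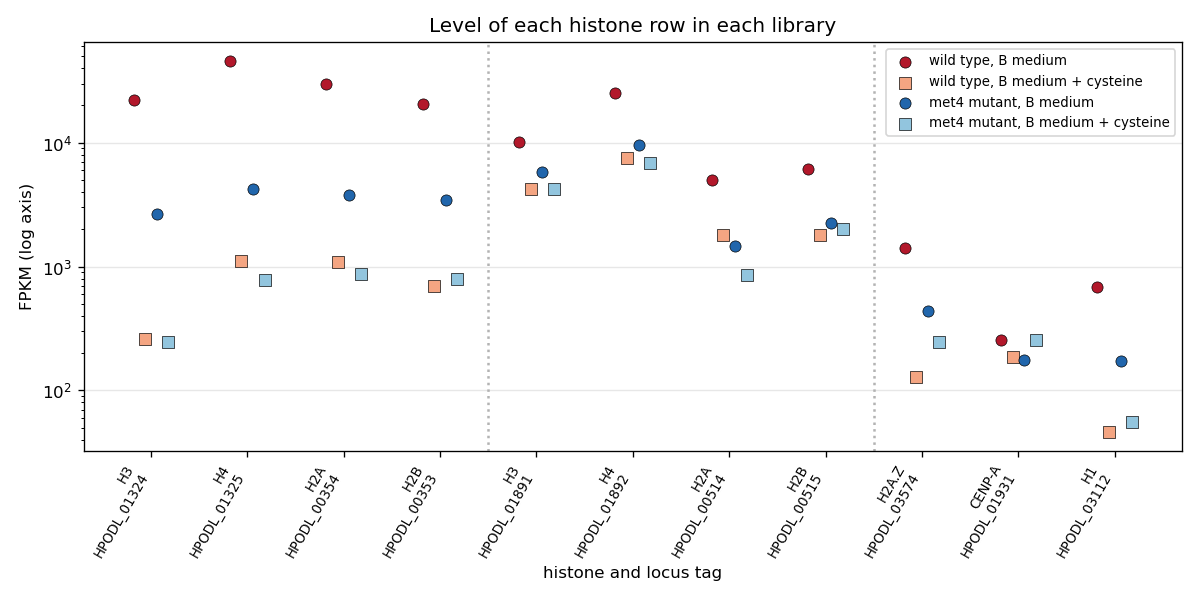
FPKM on a log axis (y) of the 11 histone rows (x) in the 4 libraries, 1 point per library; circles are B medium, squares B medium with cysteine, red shades the wild type and blue shades the met4 mutant, and CENP-A is CSE4. The dotted lines part the lower-coordinate pairs (left, 22049 against 259.8 FPKM for H3 in the wild type), the higher-coordinate pairs (centre) and the single rows (right).

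The first comparison asks how histone genes of the wild type differ between sulfur-limited cells and cells given cysteine. Histone genes were higher in B medium, with 10 of 11 rows at least 2-fold up and 0 down by that much, against 23.6% up and 13.0% down among all 5342 compared rows. The median difference of log2(FPKM + 1) was 3.46 over the histone rows and 0.19 over all rows. In RNA from whole cultures, more cells in a phase of the cell cycle and more RNA per cell cannot be told apart. In the lower-coordinate pairs the FPKM in B medium was 84.9 times that with cysteine for H3, 41.2 times for H4, 29.4 times for H2B and 27.6 times for H2A. These correspond to log2 differences of 6.40, 5.36, 4.87 and 4.78, which stand at ranks 20, 38, 45 and 48 from the top of the 5342 rows.

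The higher-coordinate pairs differed by less, by ratios of 2.37 for H3, 3.33 for H4, 2.80 for H2A and 3.41 for H2B. HHO1 was 14.97 times as high and HTZ1 11.1 times as high in B medium (log2 differences of 3.88 and 3.46). The exception among the 11 rows was CSE4, with a ratio of 1.38 and a log2 difference of 0.46. With the rows of each histone summed, the FPKM ratio was 7.14 for H3, 8.18 for H4, 12.2 for H2A and 10.6 for H2B. For H3, H4 and H2B, whose 2 rows have the same length, summing takes out a shift of reads between them. It does not do so for H2A, with rows of 396 and 909 bases, nor where shared reads were dropped or counted more than once. In these sums each core histone still lay several-fold higher in B medium.

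Row length moved little with this comparison. The running median over 100 rows on each side in order of length lay between 0.12 and 0.45 at the lengths of the histone rows, and after subtracting it the median of the histone rows was 3.03. Of the 795 compared rows of under 600 bases, 30.3% were at least 2-fold higher in B medium.

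In the met4 mutant the same comparison gave smaller differences, with 5 of 11 histone rows at least 2-fold higher and 0 lower by that much, against 13.3% and 12.1% of all rows. The median was 0.82 over the histone rows and 0.04 over all rows. The lower-coordinate pairs gave 4 of the 5 rows, with FPKM ratios of 10.8 for H3, 5.44 for H4, 4.37 for H2A and 4.36 for H2B, and HHO1 gave the other with 3.16. The H3 row again had the largest difference of the histone rows (3.43, rank 20 of 5342). None of the higher-coordinate rows reached 2-fold, with ratios of 1.37 for H3, 1.39 for H4, 1.74 for HTA2 and 1.12 for H2B, and HTZ1 stood at 1.77. CSE4 lay on the other side, at 0.701 of its level with cysteine. The 2 comparisons of media share no library.

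**Figure D2:**
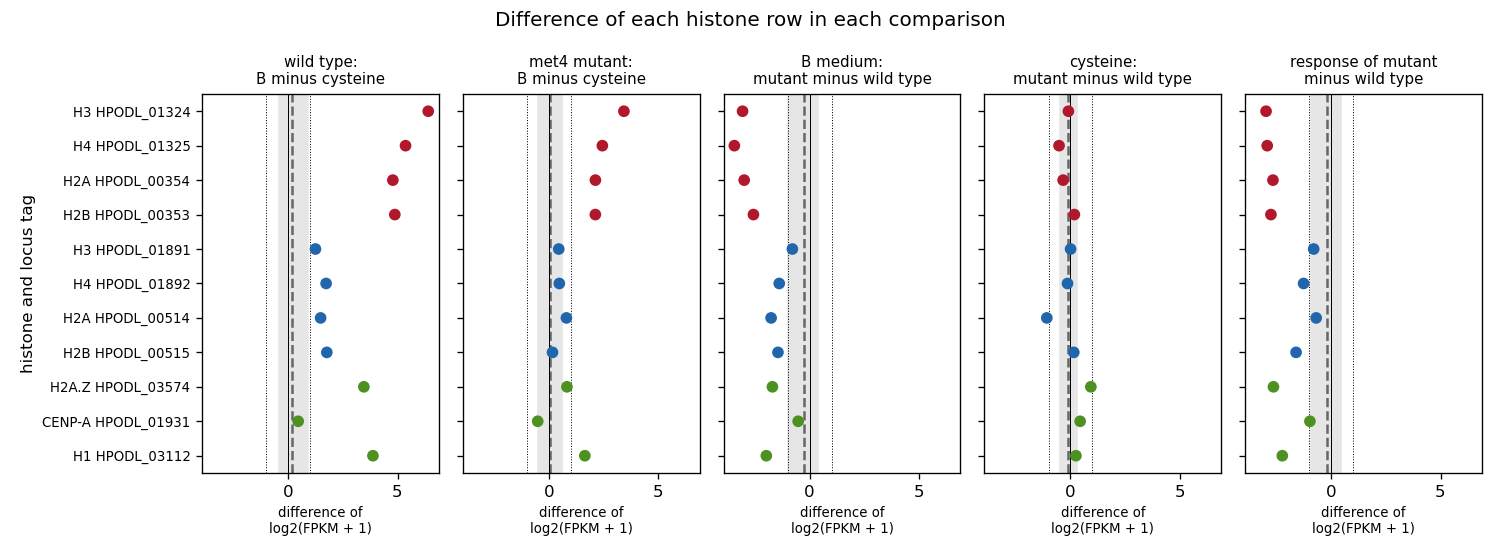
Difference of log2(FPKM + 1) (x) of each of the 11 histone rows (y) in the 5 comparisons, 1 panel each; red points are the lower-coordinate pairs, blue the higher-coordinate pairs and green the single rows. The dashed line and grey band are the median and interquartile range of all 5342 compared rows and the dotted lines mark 2-fold; the red points lie between 4.78 and 6.40 in the wild type and between 2.12 and 3.43 in the mutant.

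Between the strains in B medium, histone genes were lower in the mutant. At least 2-fold lower were 9 of 11 rows and at least 2-fold higher 0, against 24.9% and 10.5% of all rows, and the median was -1.76 over the histone rows and -0.27 over all rows. The wild-type level was 10.9 times the mutant level for the H4 row HPODL_01325, 8.37 times for the H3 row HPODL_01324, 7.95 times for hta1 and 5.93 times for the H2B row HPODL_00353. In the higher-coordinate pairs it was 3.39 times for HTA2, 2.73 for H2B, 2.62 for H4 and 1.73 for H3, and the log2 difference of that H3 row (-0.79) did not reach 2-fold. HHO1 and HTZ1 had ratios of 3.96 and 3.26, and CSE4 1.44. This comparison shares the limited wild-type library with the first comparison, so a chance high value there enters both.

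Length moved strongly with the strain comparison. Of the rows of under 600 bases, 52.7% were at least 2-fold lower in the mutant in B medium, against 20.1% of longer rows, and the running median was -2.12 at the length of H4, -1.26 at that of H3 and -0.27 at that of HTA2. With that trend subtracted the histone median was -1.12. The 4 lower-coordinate rows then stood at -1.81 (H3), -1.58 (hta1), -1.33 (H4) and -1.12 (H2B), while the higher-coordinate H4 row turned from -1.39 to 0.71 and the H3 row from -0.79 to 0.47. HHO1 and HTA2, the rows of over 600 bases, stood at -1.61 and -1.49. The higher-coordinate H2B row went from -1.45 to -0.04, HTZ1 from -1.70 to -0.43 and CSE4 from -0.52 to 0.29. Only the 4 lower-coordinate rows, HHO1 and HTA2 thus stayed at least 2-fold lower. Scaling each library to the same sum (TPM) moved the median of all rows by 1.14, to 0.87. The histone median was then -0.57, with 4 rows at least 2-fold lower. Of all rows that passed 2-fold with TPM scaling, 87.6% were higher in the mutant.

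**Figure D3:**
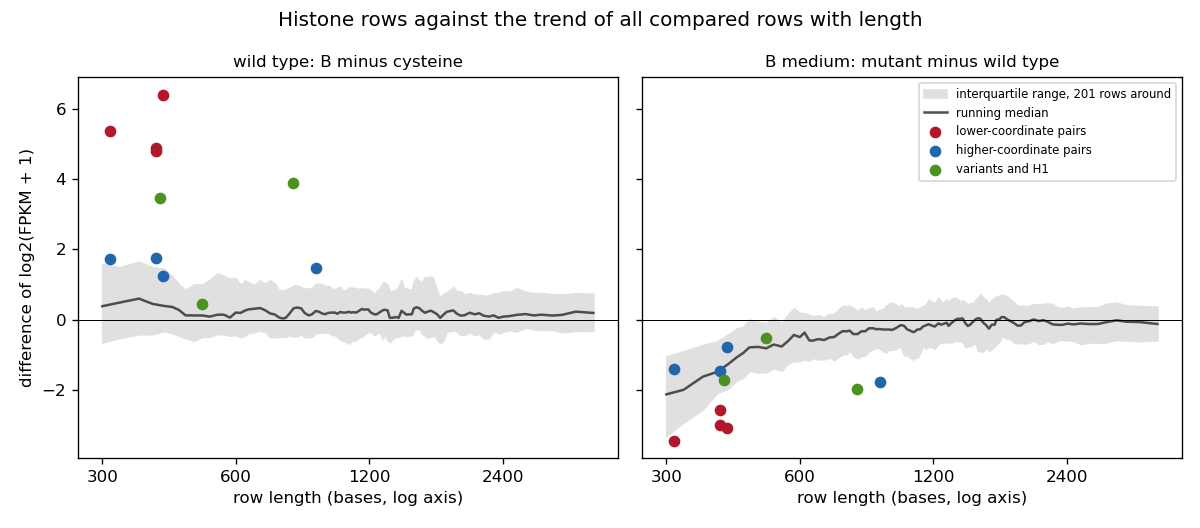
Difference of log2(FPKM + 1) (y) against row length in bases on a log axis (x) in the wild type between the media (left) and between the strains in B medium (right); points are histone rows, the line is the running median of all compared rows and the grey band the interquartile range of the rows around each length. In the right panel the median falls to -2.12 near the length of H4, where the 2 H4 rows lie below and above it.

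With cysteine the strains differed little. Histone rows at least 2-fold lower in the mutant numbered 1 of 11 (HTA2, -1.08) and those at least 2-fold higher 0, against 7.41% and 6.85% of all rows, and the median was 0.01 over the histone rows and -0.10 over all rows. The 4 lower-coordinate rows had log2 differences of -0.09 (H3), -0.52 (H4), -0.33 (hta1) and 0.18 (H2B). HTZ1 stood highest at 0.94, CSE4 at 0.44 and HHO1 at 0.25. The values of the histone rows here depend on the scaling and on the length trend. With TPM scaling the histone median was 0.81, beside 0.66 over all rows. With the trend subtracted it was 0.80, beside 0 over all rows. Of the rows of under 600 bases, 30.8% were at least 2-fold lower in the mutant.

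The difference of the 2 responses (the mutant's response to B medium minus the wild type's) was negative in each of the 11 histone rows. At least 2-fold lower were 8 of 11 rows, against 22.2% of all rows, with a median of -2.23 over the histone rows and -0.20 over all rows. The lower-coordinate rows ranged from -2.97 (H3) to -2.66 (hta1), HTZ1 stood at -2.64 and HHO1 at -2.23. In the higher-coordinate pairs the values were -1.60 for H2B, -1.26 for H4, -0.80 for H3 and -0.68 for HTA2, and CSE4 stood at -0.97. The trend with length was smaller here, and after its subtraction the histone median was -1.96. The direction of each row held under TPM scaling and with the trend subtracted. With 1 library per group, the difference of responses has no measure of its own error. It is calculated from the 2 comparisons of media and so is no separate observation. A chance high value in the limited wild-type library enters it as well, in all rows together.

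The ratio of the 2 rows of a histone within a library does not depend on how the library was scaled, and it changed with the medium for each core histone. In the wild type in B medium the lower-coordinate H3 row was 2.19 times the higher-coordinate H3 row, and with cysteine the order was turned, with the higher-coordinate row 16.3 times the other. In the mutant the higher-coordinate H3 row was the larger in both media, by 2.21 times in B medium and 17.5 times with cysteine. The H4 rows did likewise, with the lower-coordinate row 1.82 times the other in the wild type in B medium and the higher-coordinate row larger by 6.82 times with cysteine, and by 2.28 and 8.92 times in the mutant. H3 and H4 therefore came mostly from the lower-coordinate pair in 1 of the 4 libraries, by the split of reads in the deposited values.

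For H2A the lower-coordinate row was 5.999 times the other in the wild type in B medium and 0.608 times with cysteine, and 2.56 and 1.02 times in the mutant. For H2B it was 3.31 times the other in the wild type in B medium and 0.384 times with cysteine, and 1.52 and 0.392 times in the mutant. The lower-coordinate row of H2B thus prevailed in B medium in both strains. The 2 H2A rows differ in length (396 and 909 bases), so the length trend can enter their ratio. Between the strains in B medium, hta1 and HTA2 stood at -2.99 and -1.76, and at -1.58 and -1.49 with that trend subtracted. With cysteine they stood at -0.33 and -1.08, and at 0.32 and -1.08 with the trend subtracted. As a share of the summed FPKM of its histone, the lower-coordinate row went from 5.77% with cysteine to 68.6% in B medium for H3 in the wild type, and from 5.40% to 31.1% in the mutant. The responses of the 2 rows in the wild type differed by 5.15 (log2) for H3, 3.63 for H4, 3.30 for H2A and 3.11 for H2B. Among 203 other gene names carried by exactly 2 compared rows, that difference had a median size of 1.01 and reached 3 for 22 names, 10.8%. In the mutant the differences were 2.98, 1.97, 1.32 and 1.96, beside a median of 0.79 for the other names.

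**Figure D4:**
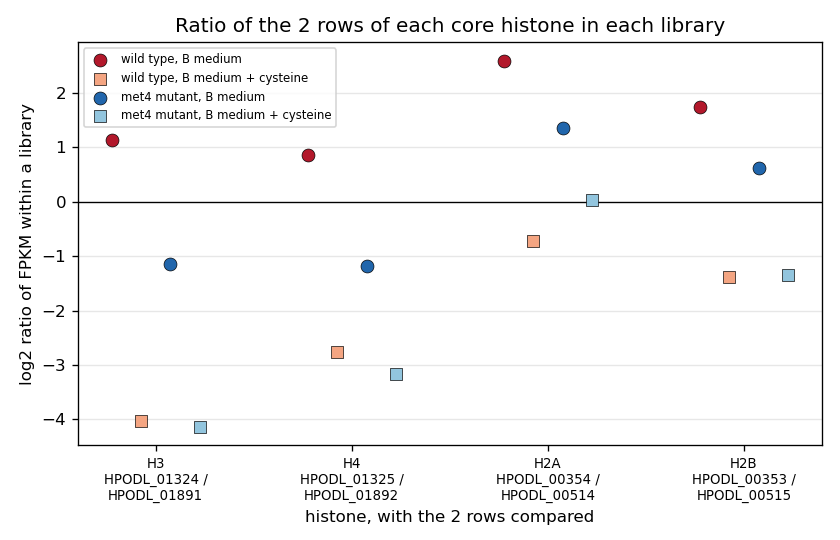
Log2 ratio of FPKM (y) of the lower-coordinate to the higher-coordinate row of H3, H4, H2A and H2B (x), 1 point per library, with circles for B medium and squares for cysteine. Ratios above 0 mean that the lower-coordinate row was the larger; in the wild type in B medium all 4 points lie above 0 (ratios of 1.82 to 5.999), and with cysteine all 4 lie below it.

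Partners of a divergent pair moved together to different degrees. In the wild type the media differences of the partners lay 0.09 apart for hta1 and its H2B partner, 0.28 for HTA2 and its partner, 0.49 for the higher-coordinate H3 and H4 and 1.04 for the lower-coordinate H3 and H4, against a median of 0.94 over 1466 divergent neighbour pairs of the table. For the media in the mutant these gaps were 0.003, 0.64, 0.03 and 0.99 in the same order, against a median of 0.72. Between the strains with cysteine they were 0.51, 1.23, 0.14 and 0.43, against a median of 0.55. The H4 row was above its H3 partner in every library, by 1.60 to 4.27 times in the lower-coordinate pair and by 1.62 to 2.50 times in the higher-coordinate pair. The H4 rows are shorter than the H3 rows (312 against 411 bases), and the part of length in these ratios was not tested. Both hta1 and the higher-coordinate H2B row were at or above their partners, by 1.09 to 1.56 times and by 1.01 to 2.38 times. The order of the higher-coordinate H2B row and HTA2 rests on the transcript length used for HTA2, which is not known here.

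Summed over the 8 canonical rows, the FPKM was 164751 in the limited and 18564 in the cysteine library of the wild type, and 33254 and 16713 in those of the mutant. Of the summed FPKM of a library this was 5.12%, 0.802%, 2.36% and 1.26%. The wild type in B medium thus stood above all others on either measure. The ratio of summed H3 and H4 to summed H2A and H2B was 1.67 and 2.03 in B medium and 2.44 and 2.70 with cysteine, in the wild type and the mutant in that order. These rows have lengths of 312 to 909 bases, and the part of length in this ratio was not tested. The lower-coordinate pairs alone summed to 118315, 3156, 14075 and 2674 FPKM, and the higher-coordinate pairs to 46436, 15408, 19179 and 14039.

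The 14 other rows that lie next to histone rows on the chromosomes differed among themselves. In the wild type 5 of 14 were at least 2-fold up without cysteine and 2 down by that much, against 23.6% and 13.0% of all rows, with a median of 0.30. The 5 were BCR1 beside HTZ1 (1.92), ARP9 beside CSE4 (1.69), Epsilon-COP 2 beside the higher-coordinate H3 (1.55), Wdr5 beside HTA2 (1.46) and ANAPC4 beside HHO1 (1.40). The lower ones were syvn1, on the other side of HTZ1 (-2.08), and PAB1, on the other side of HHO1 (-1.64). None of the 5 lay beside a lower-coordinate pair, where the flanking rows were HPODL_01323 (-0.02) and HPODL_01326 (0.98) around H3 and H4, and HPODL_00352 (0.04) and RMD1 (-0.15) around H2B and H2A. The remaining neighbours were UTP8 (0.57), EIS1 (-0.19) and CLG1 (-0.44).

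Genes that handle histones differed less than the histone genes. Of 16 rows for histone chaperones and assembly factors, 5 were at least 2-fold higher in the limited wild type and 0 lower, against 23.6% and 13.0% of all rows, with a median of 0.42. ASF1, a chaperone of newly made H3 and H4, had 284 FPKM without and 118 with cysteine in the wild type (1.26). In the mutant it had 55.9 and 38.4 FPKM. RTT106, another H3 and H4 chaperone, stood at 1.07 in the wild type, while NAP1, which binds H2A and H2B, stood at -0.06 and the FACT subunits SPT16 and POB3 at 0.64 and 0.48. SPT6 (0.51), VPS75 (0.37), HIR2 (0.08) and HIR1 (-0.10) also stayed within 2-fold. In the mutant 0 of 16 passed 2-fold in either direction between the media, against 13.3% and 12.1% of all rows. Between the strains in B medium 8 of 16 were at least 2-fold lower in the mutant, against 24.9% of all rows (median -1.002), among them ASF1 (-2.32), SPT16 (-1.503) and RTT106 (-1.43).

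Of the histone-modifying enzymes, 2 of 26 rows were at least 2-fold higher and 3 lower in the limited wild type, against 23.6% and 13.0% of all rows, with a median of -0.07. The acetyltransferases GCN5 and RTT109 stood at 0.09 and -0.28, the deacetylases RPD3 and HDA1 at 0.13 and -0.61, and the methyltransferases SET1, SET2 and DOT1 at -0.22, -0.14 and 0.57. Regulators known from budding yeast to act on histone genes had a median of -0.01, with 1 of 10 rows at least 2-fold higher, against 23.6% of all rows (HIR1, HIR2, HIR3 and HPC2 stand in this list and in that of the chaperones). That row was SWI4, the DNA-binding subunit of a G1/S transcription factor, with 22.3 FPKM without and 8.20 with cysteine in the wild type (1.34). In the mutant it had 2.18 and 6.24 FPKM (-1.19). SPT21, an activator of histone genes there, stood at 0.59, its partner SPT10 at -0.82, SWI6 at 0.45, MBP1 at -0.15 and YTA7 at 0.18. In B medium the mutant was at least 2-fold lower than the wild type in 5 of the 10, against 24.9% of all rows, with SWI4 at -2.88, SWI6 at -1.93 and MBP1 at -1.03.

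Genes of DNA replication and of cell division also lay higher in wild-type B medium. At least 2-fold higher were 24 of 43 replication and S-phase rows (median 1.07) and 14 of 15 rows of cyclins and mitotic genes (median 1.94), and 0 rows of either list were at least 2-fold lower, against 23.6% higher and 13.0% lower of all rows. POL30, the sliding clamp PCNA, had 601 FPKM without and 146 with cysteine, and POL1, of DNA polymerase alpha, 50.8 and 7.71. RNR1, of ribonucleotide reductase, stood at 1.17, MCM2 at 0.91, RNR2 at 0.57 and CDC9 at 0.11. The cyclins CLN3 and CLB2 stood at 2.22 and 1.94 and the mitotic kinase CDC5 at 1.71. In the mutant these lists had medians of -0.04 (3 higher and 2 lower of 43) and 0.24 (3 higher and 0 lower of 15), against 13.3% higher and 12.1% lower of all rows, and the histone rows one of 0.82.

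In B medium the mutant was at least 2-fold lower than the wild type in 34 of 43 replication rows (median -1.95), with POL30 at -3.31, and in 13 of 15 rows of cyclins and mitotic genes (median -1.66), against 24.9% of all rows. With cysteine the replication list had a median of -0.62, with 12 of 43 rows at least 2-fold lower and 1 higher, against 7.41% and 6.85% of all rows, and the histone rows one of 0.01. The rows of these lists are longer than the histone rows, with a median length of 1577 bases for the replication list and 1391 for the cyclins and mitotic genes, against 405. Cytosolic ribosomal protein genes, another group of short and abundant rows (median length 524 bases), had medians of 2.64 in the wild type and 1.66 in the mutant between the media. The histone medians were 3.46 and 0.82, so the histone rows stood above that list in the wild type and below it in the mutant. Between the strains in B medium their median was -1.53, with 58 of 73 rows at least 2-fold lower in the mutant, beside -1.76 for the histone rows, and with the length trend subtracted it was -0.69 against -1.12. The share of cells in S phase was not measured, and its part in these differences was not tested.

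**Figure D5:**
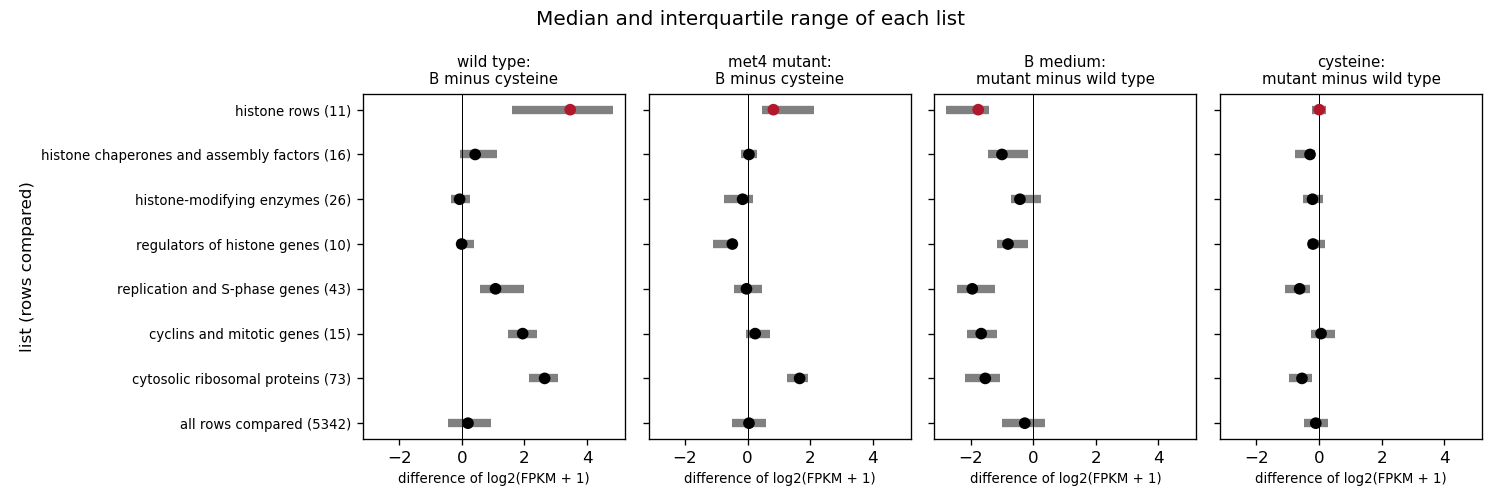
Median (point) and interquartile range (bar) of the difference of log2(FPKM + 1) (x) in the histone rows, 6 other lists and all compared rows (y, with the number of rows), in 4 comparisons. The histone rows (red) have a median of 3.46 in the wild type between the media, above the 1.07 of replication genes and the 2.64 of ribosomal proteins. In the mutant their median of 0.82 lies below the 1.66 of ribosomal proteins, and between the strains with cysteine it is 0.01.

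The pattern over the 4 libraries was set beside that of 4162 other rows with a described product and a mean of at least 5 FPKM. Likeness was the Euclidean distance between values of log2(FPKM + 1), each centred on its own mean, and the average of the 8 canonical rows. The 6 nearest rows lay at distances of 0.23 to 0.44, against a median of 2.83. They were an alcohol dehydrogenase-like row (YKK1_SCHPO, HPODL_05064), the mannose-6-phosphate isomerase PMI40, the ribosomal protein gene RPL14B, IQG1, a protein of cytokinesis in budding yeast, the vacuolar amino acid transporter fnx2 and the adenylyl-sulfate kinase MET14. PMI40 had 297 and 19.0 FPKM in the limited and the cysteine library of the wild type, and 60.5 and 18.1 in those of the mutant. Of the histone rows outside the average, HHO1 lay at 0.46, HTZ1 at 0.95 and CSE4 at 2.81. The canonical rows themselves lay 1.09 to 2.52 from their average, and 1405 of the 4162 rows were nearer to it than the farthest of them, so that with 4 libraries this likeness is shared by many genes.

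In the authors' deposited table, which marks genes at a threshold of 0.05 in the pairings of wild-type with mutant libraries, 0 of 11 histone rows were marked in any of the 4 pairings, out of 11 to 57 marked rows per pairing in all. The table has no marks for the comparisons between media.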

How the data were processed

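Per the labels' protocols, total RNA was extracted with hot phenol, cleaned on columns and sequenced from Illumina libraries. The authors deposited FPKM values, and the submitters' processing notes name Cuffdiff, Cufflinks 2.1.1 and TopHat without roles. Not given in the sources used here are the build, annotation release, strand setting and treatment of reads shared between rows. Groups came from the sample titles.

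From the deposited FPKM, rows with a mean of at least 1 FPKM (5342 of 5448, and 11 of 11 histone rows) were compared as differences of log2(FPKM + 1), which understate changes of low rows, and a 2-fold difference on this scale was counted. Length ran from the start to the end of a row and includes introns. No test was possible with 1 library per group. The calculation was tested on simulated data. Gene symbols and products are the table's, and all 11 locus tags matched the RefSeq gene table. The lists were matched by symbol or product, and 2 rows with a cyclin's or kinase's symbol but another product were left out.

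The histone rows and lists were chosen with earlier results of these data known. Genes were named by a fixed rule: all histone rows and their neighbours, preset members of each list, the 6 rows of most similar pattern, and the deleted locus. HPODL_05198 was added after its values were seen. Alternatives were other pseudocounts (0.1 and 5), filters (none and 10 FPKM), scalings (median-of-ratios, upper-quartile, TPM, total of rows of at least 600 bases) and removal of the length trend. Canonical rows alone and summed copies were added after seeing the data. Python 3.11.15, numpy 2.4.6 and pandas 2.3.3 were used.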

Additional observations from a re-analysis of the deposited data

Results flagged for a closer look

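CSE4 differed in direction between the strains, higher in B medium than with cysteine in the wild type and lower in the mutant, with a difference of responses of -0.97. With TPM scaling its wild-type value was -0.01 and its mutant value -0.59, so that the opposite direction was lost. The strain difference of 6 rows had opposite signs in the 2 media, lower in the mutant in B medium and higher with cysteine. The gap was -2.75 for the H2B row HPODL_00353, -1.60 for the H2B row HPODL_00515, -2.64 for HTZ1, -0.80 for the H3 row HPODL_01891, -0.97 for CSE4 and -2.23 for HHO1. With TPM scaling and with the length trend subtracted, HPODL_01891 (0.40 and 0.47 in B medium) and CSE4 (0.66 and 0.29) were higher in the mutant in both media, and the deposited values of HPODL_01891 with cysteine differed by only 0.01. Each rests on 1 library per group, and none of these differences was tested.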

How the results depend on the processing

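No paired analysis was possible because each group holds 1 library, and no replicate could be left out. A value was taken as kept when it stayed on its side of 2-fold and within 1.5-fold, in place of a replicate spread. The medians and counts of the wild-type comparison of media and of the difference of responses stayed within these limits under each alternative run. Rows at least 2-fold higher in the wild type still went from 10 to 9 with TPM scaling and with the length trend subtracted (HPODL_01891 at 0.77 and 0.86), and rows at least 2-fold lower in the difference of responses from 8 to 7 and 6. Between the strains in B medium, the median moved from -1.76 to -0.57 with TPM scaling, with 4 rows at least 2-fold lower. The median of all rows moved there from -0.27 to 0.87. With the length trend subtracted the histone median was -1.12, and only the lower-coordinate rows, HHO1 and HTA2 stayed at least 2-fold lower. Between the strains with cysteine, the median moved from 0.01 to 0.81 with TPM scaling and 0.80 with the trend subtracted. The median of all rows was there 0.66 with TPM scaling and 0 with the trend subtracted. Histone rows at least 2-fold higher there numbered 1 with median-of-ratios and with upper-quartile scaling, 3 with TPM scaling and 2 with the trend subtracted. Those at least 2-fold lower numbered 0 with each of these 3 scalings. Of all rows that passed 2-fold, 56.9%, 65.3%, 92.6% and 69.6% were higher in the mutant under these settings in that order. In the mutant, the median of the media difference was 1.46 over the canonical rows alone. The scalings moved the median of all rows by between -0.44 and 1.14. Of 55 differences of single rows, 24 moved with TPM scaling, 2 with median-of-ratios and 2 with upper-quartile scaling, and 23 with the trend subtracted. A change of sign was called a reversal only for a row at least 2-fold different as deposited. With the trend subtracted this held for the H4 row HPODL_01892 between the strains in B medium (0.71). Smaller differences changed sign there too. They were HPODL_01891 and CSE4 in B medium, and HPODL_01324, HPODL_01325, hta1 and HPODL_01892 with cysteine. The cause of these shifts beyond the scaling or trend itself was not tested. Depth is unknown and limits every value to a description of these 4 libraries.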
